A study of Rattus norvegicus with 18 samples.

Results

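The comparison set females that ate a high-fat diet themselves, and whose grandfathers ate chow, against females that ate chow, and whose grandfathers ate the high-fat diet. It used 9 of the 18 arrays of the series, grouped by their labels. All animals were adult Sprague-Dawley females of the F2 generation, and each array carried RNA of the extensor digitorum longus, a fast muscle of the lower hindlimb. The grandfathers were the F0 males at the head of each lineage, fed either chow or high-fat food, and the F2 females ate chow or a diet with 42/45% of its energy from fat for 12 weeks. Groups are written as grandfather's diet/own diet. The chow/high-fat group held 5 animals and the high-fat/chow group 4, with 5 chow/chow and 4 high-fat/high-fat animals in the same fit. The females compared thus differed in both diets at once. Each gene's difference equals its difference between chow/high-fat and chow/chow (the own diet) minus its difference between high-fat/chow and chow/chow (the grandfather's diet). Both of these are given beside it, and they share the 5 chow/chow arrays. How many F0 males founded a lineage, and whether the line ran through F1 sons or daughters, is not given in the sources used here. Relatives counted as independent could make p-values too small. High-fat/chow against chow/chow also sets the high-fat lineage against the chow lineage. Differences between founders or families therefore cannot be told apart from the grandfather's diet. A part credited below to the grandfather's diet is this difference between lineages.

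Muscle burns fatty acids in mitochondria, with peroxisomes taking part in breaking down long and branched chains. Fatty acids reach the mitochondrion as carnitine esters, are shortened by the enzymes of beta-oxidation, and otherwise rest as triglyceride in lipid droplets inside the fibre. In muscle, high-fat food and fasting are known to raise many of these genes through the fatty acid-sensing nuclear receptors of the PPAR family. Paternal and grandpaternal diets are studied as possible causes of altered metabolism in descendants that never ate the diet.

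Values are log2 of the deposited array intensity plus an offset of 16, after quantile normalization, and differences are log2 differences of group means, chow/high-fat minus high-fat/chow unless stated. The median deposited intensity was 61.34 ± 5.12 on the chow/high-fat arrays (SD, n = 5) and 65.82 ± 5.35 on the high-fat/chow arrays (SD, n = 4). This difference did not pass a two-sided exact permutation test (p = 0.238, where 126 splits allow a smallest p of 0.00794). Fast-muscle genes stood where this muscle should have them: Actn3, Tnnt3 and Tnni2 lay at the 99.9th percentile of gene levels and the parvalbumin gene Pvalb at the 99.6th, while the slow myosin gene Myh7 lay at the 96th. No measured marker gene had a group mean at 0. Only genes above a filter on mean level were counted, so this was all but fixed in advance. In bulk RNA, fewer cells of a type and less RNA per cell cannot be told apart.

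Decr1 (probe set 10875631), the mitochondrial dienoyl-CoA reductase needed to oxidize unsaturated fatty acids, was 1.81-fold higher in the females' own exposure than in grandfather's exposure alone. It was the 1 gene of 12642 to pass (limma, Benjamini-Hochberg adjusted p under 0.05), which is 0.00791% of the genes tested. Its levels were 8.57, 8.41, 8.28, 8.84 and 8.28 in the chow/high-fat animals and 7.51, 7.61, 7.65 and 7.72 in the high-fat/chow animals. Every chow/high-fat animal lay above every high-fat/chow animal. The difference was 0.85 (SE 0.13, 95% confidence interval 0.58 to 1.13, adjusted p = 0.0436). The chow/chow animals were at 7.93, 7.93, 8.19, 7.61 and 7.80. Their mean lay between the 2 groups, while replicate 4 lay within the range of the high-fat/chow animals. By the means, the own-diet part of the difference was 0.58, and the grandfather's part, at -0.27, made up the rest. The high-fat/high-fat animals were at 8.59, 8.28, 8.05 and 7.96. The direction of Decr1 held in 32 of 32 alternative settings, and it passed in 12 of them. It did not pass on the table as deposited (0.74, adjusted p = 0.196), with median-centred arrays (adjusted p = 0.150), with an offset of 1 (0.0700) or 64 (0.0668), or with array weights (0.0824). Nor did it pass with the array median as a covariate (adjusted p = 0.188) or without the 2 arrays of lowest median (0.148). With animals of neighbouring numbers as a random block the difference was 0.84 (adjusted p = 0.0748). It also missed, at adjusted p from 0.0505 to 0.204, when chow/chow replicate 1, 2 or 5, chow/high-fat replicate 1, 2, 4 or 5, high-fat/chow replicate 2, 3 or 4, or high-fat/high-fat replicate 2 or 3 was left out.

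Across all genes the 2 groups were balanced in direction, with 50.46% of genes higher in chow/high-fat and a median difference of 0.0014. At an unadjusted p under 0.05 there were 1411 genes, 11.2% of those tested, where 632.1 would be expected by chance: 644 higher (5.09%) and 767 lower (6.07%). The higher share of these, 45.6%, was 9.37% on the table as deposited and 57% with arrays centred on their medians. In 347 genes (2.74%) the groups did not overlap, with 1.35% of all genes higher and 1.39% lower in this way. The 95% confidence interval lay within 1.5-fold either way for 12086 genes (95.6%) and within 2-fold for 12558 (99.34%). Only 28 genes were more than 1.5-fold higher and 17 more than 1.5-fold lower.

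Taken alone against chow/chow, the own diet gave 0 genes past the threshold in limma (0% of genes; smallest adjusted p = 0.225) and 607 at an unadjusted p under 0.05 (4.8%). The grandfather's diet alone gave 1 (0.00791%) and 1106 (8.75%). That gene was Slc17a5, the exporter of sialic acid from lysosomes, which fell by 0.68 on the log2 scale in high-fat/chow against chow/chow (SE 0.11, limma adjusted p = 0.0484). It was 8.18, 8.05, 8.02, 7.92 and 8.06 in chow/chow, 7.62, 7.16, 7.31 and 7.35 in high-fat/chow, and 8.03, 7.94, 7.93, 7.53 and 7.66 in chow/high-fat. The chow/high-fat and high-fat/chow groups overlapped for Slc17a5, with a difference of 0.46 (adjusted p = 0.186). The count for the grandfather's diet was 0 in 13 of the 18 fits that left out 1 array. These left out any 1 of the 5 chow/chow arrays, chow/high-fat replicate 2, 3 or 5, high-fat/chow replicate 2, 3 or 4, or high-fat/high-fat replicate 2 or 3. On the table as deposited the counts became 1 for the own diet and 0 for the grandfather's. Within the 5 pairs of neighbouring animal numbers of the chow lineage, as a fixed block, the own diet again gave 0 in limma (smallest adjusted p = 0.351) and 846 genes at an unadjusted p under 0.05. Of the genes at an unadjusted p under 0.05, the share that was higher was 51.9% for the own diet (1.6% as deposited) and 49.6% for the grandfather's (9.41% as deposited, 29.1% median-centred).

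The 20 genes of smallest p comprised Decr1 and 19 others at adjusted p from 0.146 to 0.170. Of the 20, 12 were higher in chow/high-fat and 8 lower. In 19 the groups did not overlap, against 2.74% of all genes, but genes picked for small p in this comparison seldom overlap. The chow/chow mean lay between the other two means in 20 of 20, against 40.3% of all genes and 79.2% of genes at an unadjusted p under 0.05. A gene of large difference is likely to hold the chow/chow mean between its groups, and no test was made of this. The same applies to the high-fat/high-fat mean, which lay between the chow/high-fat and high-fat/chow means in 18 of 20, against 32.3% of all genes. The own diet gave the larger part of the difference in 7 of the 20 and the grandfather's diet in 13.

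**Figure D1:**
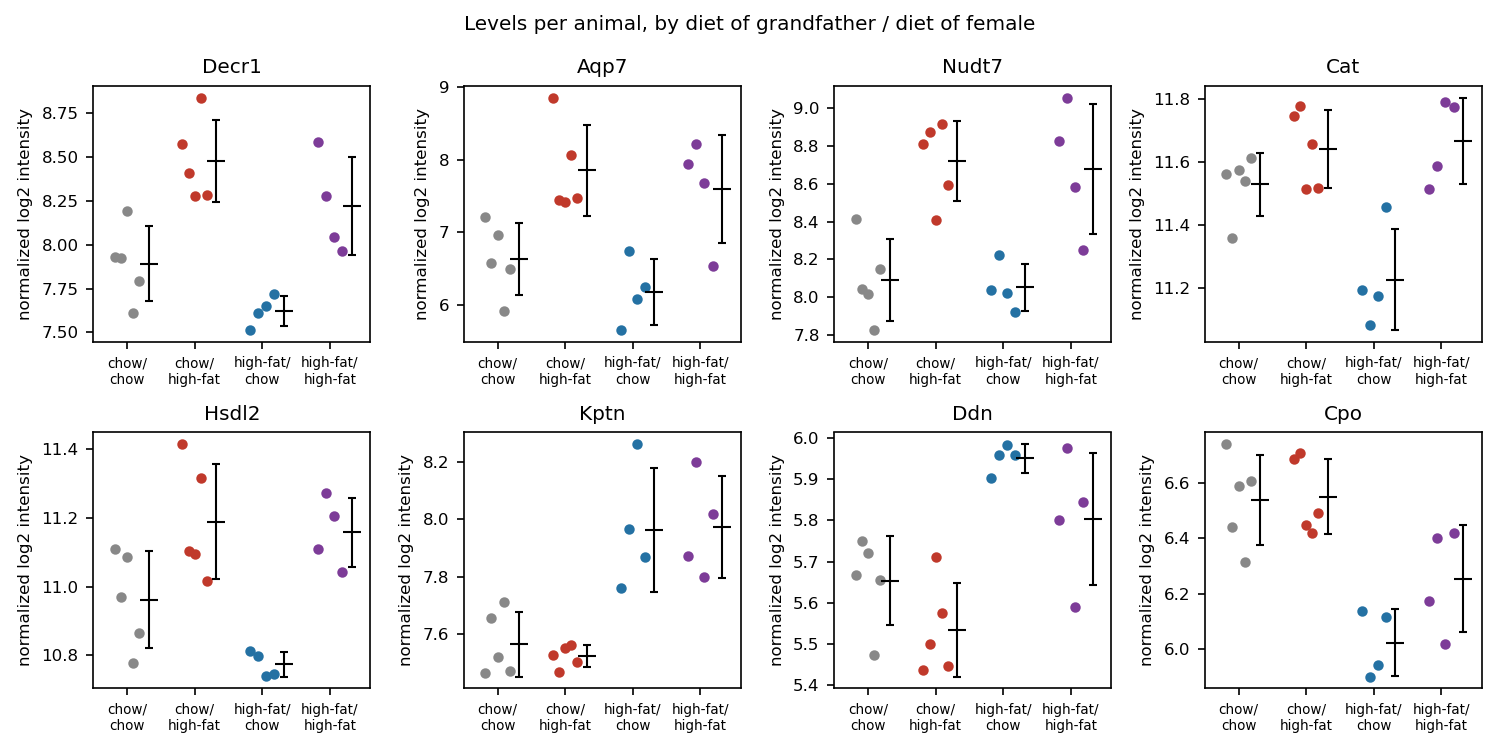
Normalized log2 intensity of 8 genes in each animal (points) of the 4 groups, named by diet of grandfather/diet of female, with the mean and SD as bars beside them. Decr1, Aqp7 and Nudt7 are higher mainly in the females that ate the high-fat diet, while Kptn stands apart in both groups of the high-fat lineage. For Ddn and Cpo the high-fat/chow mean lies furthest from that of chow/chow, with the high-fat/high-fat mean between them.

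Genes of fatty acid oxidation were higher in chow/high-fat in 22 of 23 measured members, with a median difference of 0.24 against 0.0014 over all genes. Of the 23, 16 were higher at an unadjusted p under 0.05 (69.6%, against 5.09% of all genes) and 0 lower; 1, Decr1, passed over all genes. On the table as deposited 20 of 23 were higher, with Acads at -0.0068 and Acot13 at -0.041. The median was 0.20 for the own diet and -0.07 for the grandfather's diet, with 20 of 23 members higher in the first and 17 of 23 lower in the second. In the high-fat/high-fat animals against chow/chow, a comparison that shares no array with this one, 21 of 23 members were higher, with a median of 0.24. The list was assembled with earlier results of these data known.

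Entry into the mitochondrion was represented by Cpt1b, the carnitine palmitoyltransferase of muscle, Slc25a20, the carnitine carrier of the inner membrane, and Cpt2, which hands the chain back to coenzyme A. Cpt1b was 11.40, 11.33, 11.29, 11.30 and 11.29 in chow/high-fat and 11.13, 11.06, 11.15 and 11.17 in high-fat/chow. The groups did not overlap, yet the difference was small, 0.19 (SE 0.057, adjusted p = 0.230). It arose almost wholly from the own diet (0.19, against -0.0015 for the grandfather's diet). Cpt2 differed by 0.33 and Slc25a20 by 0.28, with overlapping groups. Mlycd, which degrades the malonyl-CoA that blocks this entry, was 8.88, 8.93, 8.50, 9.02 and 8.82 against 8.44, 7.94, 8.09 and 8.23. Its groups did not overlap, and the difference of 0.66 (SE 0.14, adjusted p = 0.149) was 0.54 from the own diet and -0.11 from the grandfather's. Acacb, the carboxylase of the mitochondrial surface that makes malonyl-CoA, was also higher, by 0.29 (SE 0.071, adjusted p = 0.208), with every chow/high-fat animal above every high-fat/chow animal.

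Among the chain-shortening enzymes, Acadl, the long-chain acyl-CoA dehydrogenase, was 11.87, 11.45, 11.57, 11.83 and 11.55 in chow/high-fat and 11.34, 11.31, 11.15 and 11.15 in high-fat/chow. It did not overlap and differed by 0.42 (SE 0.091, adjusted p = 0.149), with nearly equal parts from the own diet (0.20) and the grandfather's (-0.22). The medium- and very-long-chain dehydrogenases differed less: Acadm by 0.20 and Acadvl by 0.15. Eci2 and Eci1, the isomerases for unsaturated chains, differed by 0.38 and 0.31, and Ech1, an isomerase of dienoyl chains, by 0.35. Hadha and Hadhb, the subunits of the trifunctional protein, differed by 0.24 and 0.23, and Acaa2, the closing thiolase, by 0.43. Etfdh, which passes the electrons on to ubiquinone, differed by 0.34. Echs1, the short-chain hydratase, was the 1 member lower (-0.16). For Etfa, Acadm and Acadl the grandfather's diet gave the larger part, and for Cpt1b, Mlycd, Eci2, Hadh and Ech1 the own diet did. Hadh is the dehydrogenase that follows the hydratase step. None of the differences in this paragraph passed over all genes.

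**Figure D2:**
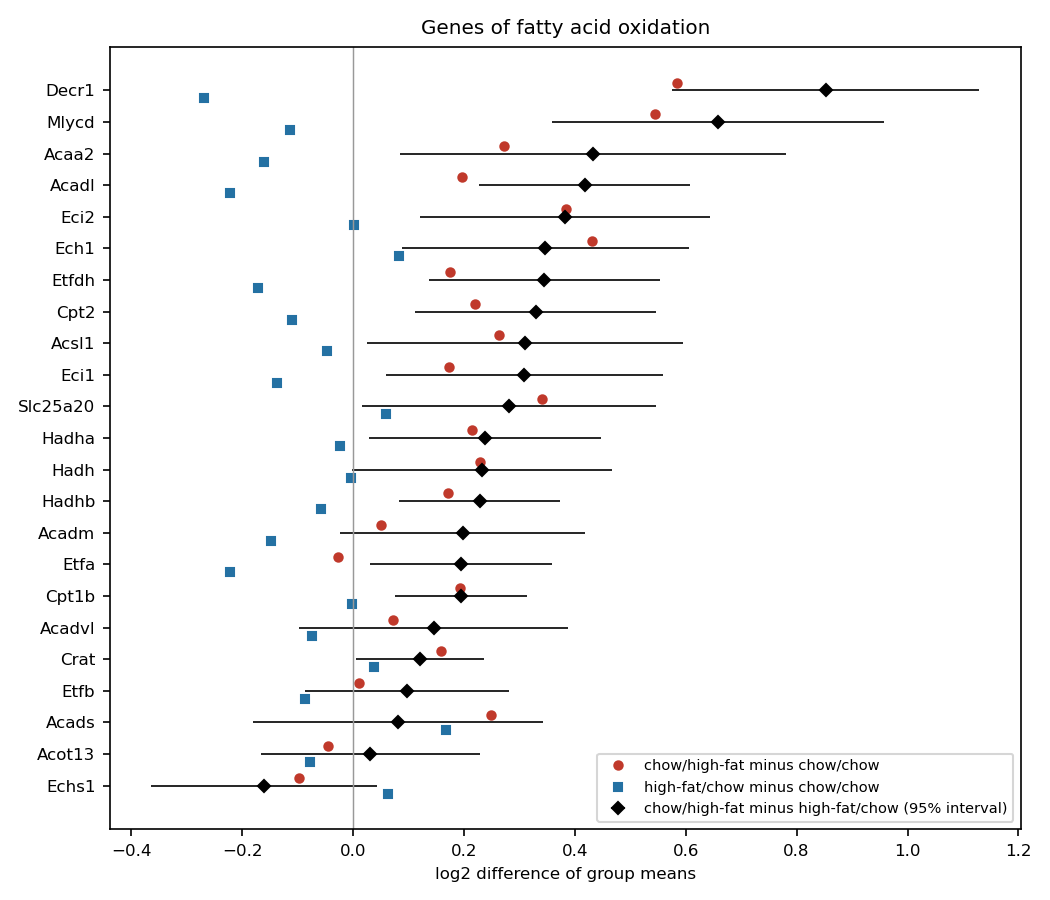
Log2 differences of group means for the 23 measured genes of fatty acid oxidation: chow/high-fat minus high-fat/chow with its 95% confidence interval (black), and its 2 parts, chow/high-fat minus chow/chow (red) and high-fat/chow minus chow/chow (blue). Of the 23 black points 22 lie above 0, from 0.03 for Acot13 to 0.85 for Decr1, and the red and blue parts share the chow/chow arrays.

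Peroxisomal enzymes were among the genes of smallest p, while over the organelle's genes 18 of 28 measured members were higher, with a median of 0.05 that became -0.03 on the table as deposited. Of the 28, 7 were higher at an unadjusted p under 0.05 (25%, against 5.09% of all genes) and 1 lower (3.57%, against 6.07%). Cat, the catalase that clears peroxisomal hydrogen peroxide, was 11.74, 11.78, 11.51, 11.66 and 11.52 in chow/high-fat and 11.19, 11.08, 11.18 and 11.46 in high-fat/chow. Its groups did not overlap (0.41, SE 0.087, adjusted p = 0.146). Most of this was a low level in the high-fat/chow animals, since Cat differed from chow/chow by 0.11 with the own diet and by -0.30 with the grandfather's. Hsdl2, a peroxisomal protein of the short-chain dehydrogenase family, was 11.41, 11.10, 11.10, 11.32 and 11.02 against 10.81, 10.80, 10.74 and 10.75. The high-fat/chow animals lay within a narrow range below all the others of the comparison (0.42, SE 0.086, adjusted p = 0.146; 0.23 and -0.19 for the 2 diets). Nudt7, which hydrolyses peroxisomal coenzyme A and its esters, was 8.81, 8.87, 8.41, 8.92 and 8.59 against 8.04, 8.22, 8.02 and 7.92. Here the difference of 0.67 (SE 0.14, 1.59-fold, adjusted p = 0.146) lay almost wholly with the own diet, at 0.63 against -0.04. Of members chosen after their values were seen, Crot, the carnitine octanoyltransferase, differed by 0.48, Pex11a, which drives peroxisome division, by 0.38, Abcd3, a transporter of the peroxisomal membrane, by 0.35, and Pxmp4, a membrane protein, by 0.27.

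The promoters of these 3 peroxisomal genes are shown because the genes had adjacent p-values yet drew on the 2 diets in different proportions. Sequences are from RefSeq on GRCr8, from 250 bases before to 50 after the gene start, written along the gene's strand. Cat lies at chr3:110329477-110329776 (minus strand), Nudt7 at chr19:59034638-59034937 (plus strand) and Hsdl2 at chr5:79238631-79238930 (plus strand). Capitals mark AGGTCA, the half-site of many nuclear receptors, searched on both strands.
Cat: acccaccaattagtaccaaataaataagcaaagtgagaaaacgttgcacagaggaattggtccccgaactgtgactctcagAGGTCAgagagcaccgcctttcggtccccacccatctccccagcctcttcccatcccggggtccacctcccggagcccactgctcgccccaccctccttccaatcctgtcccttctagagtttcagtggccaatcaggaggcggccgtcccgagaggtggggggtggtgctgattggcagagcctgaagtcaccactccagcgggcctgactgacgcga
Nudt7: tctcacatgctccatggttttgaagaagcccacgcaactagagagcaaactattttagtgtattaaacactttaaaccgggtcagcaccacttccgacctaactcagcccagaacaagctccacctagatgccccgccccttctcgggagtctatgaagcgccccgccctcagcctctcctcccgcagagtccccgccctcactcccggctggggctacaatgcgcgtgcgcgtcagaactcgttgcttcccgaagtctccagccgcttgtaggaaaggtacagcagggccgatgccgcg
Hsdl2: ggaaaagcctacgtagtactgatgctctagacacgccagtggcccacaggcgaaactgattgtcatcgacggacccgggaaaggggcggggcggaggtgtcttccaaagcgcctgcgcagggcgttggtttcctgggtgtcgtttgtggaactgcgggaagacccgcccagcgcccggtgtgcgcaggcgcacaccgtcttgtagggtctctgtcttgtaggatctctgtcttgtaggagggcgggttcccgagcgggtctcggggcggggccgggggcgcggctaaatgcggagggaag
The half-site occurred in 1 of the 3, Cat, and in 16.2% of 33469 RefSeq promoters of this length. It occurred in 2 of the 14 of the 20 genes of smallest p that had a promoter entry (14.3%: Cat and Cacna1f). In fatty acid oxidation it occurred in 5 of 18 genes (27.8%: Acadvl, Echs1, Eci1, Eci2 and Hadhb). These sets were counted by gene, where a match in any entry was enough, and the 16.2% by entry, so the shares are not in the same unit. Binding was not measured, and the match of letters is a description.

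Genes of lipid droplets and lipolysis were higher in 14 of 17 members (12 of 17 as deposited), with a median of 0.23. Of the 17, 6 were higher at an unadjusted p under 0.05 (35.3%, against 5.09% of all genes) and 0 lower. The largest difference among the genes of smallest p belonged to Aqp7, the channel through which glycerol crosses the membrane. Aqp7 was 8.85, 7.44, 7.42, 8.07 and 7.47 in chow/high-fat and 5.66, 6.75, 6.08 and 6.25 in high-fat/chow. The groups did not overlap, and the difference was 1.67 (SE 0.34, 3.18-fold, adjusted p = 0.146), 1.22 of it from the own diet and -0.45 from the grandfather's. Aqp7 passed in 1 of 32 alternative settings. That was the limma fit with the column of the array's well, which the sample titles give, as a block (1.93, adjusted p = 0.0373). In the other settings its adjusted p reached up to 0.490. Plin5, which tethers droplets to mitochondria, was 8.60, 7.80, 8.17, 8.09 and 7.60 against 7.34, 7.18, 6.99 and 6.99. It did not overlap either (0.92, SE 0.23, 1.90-fold, adjusted p = 0.208). G0s2, an inhibitor of the first triglyceride lipase, differed by 0.97 (SE 0.31, adjusted p = 0.250), from 6.37 to 8.27 in chow/high-fat and from 6.15 to 6.89 in high-fat/chow, with overlap. Pnpla2, that lipase, differed by 0.23 without overlap. Lipe, the hormone-sensitive lipase, differed by 0.54, but its other probe set differed by -0.33, so its direction is uncertain. Plin2, Dgat2 and Mgll differed by 0.25, 0.29 and 0.07, with overlap.

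Several of these droplet genes are also active in fat cells. Adipoq, the adipocyte hormone adiponectin, differed by 0.12 (SE 0.28) and turned to -0.15 without chow/high-fat replicate 2. Plin1 and Cidec, the droplet proteins of adipocytes, differed by 0.06 and -0.05. Cidea, another droplet protein and the marker of largest difference, was 6.36, 7.29, 6.63, 6.71 and 6.52 against 6.20, 5.97, 6.06 and 6.31, without overlap (0.56, SE 0.21, adjusted p = 0.330). Of the 13 measured adipocyte markers 9 were higher, with a median of 0.06 and a mean of 0.12, and 2 (15.4%, against 5.09% of all genes) were higher at an unadjusted p under 0.05. Their summed intensity ran from 5830 to 7187 in chow/high-fat and from 5024 to 6764 in high-fat/chow. Their part in the differences of the droplet genes was not tested.

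The fatty acid-responsive genes of muscle were higher in 17 of 18 members, with a median of 0.29 (0.27 for the own diet and -0.12 for the grandfather's). Of the 18, 10 were higher at an unadjusted p under 0.05 (55.6%, against 5.09% of all genes) and 0 lower. The list shares Decr1, Mlycd and Cpt1b with that of oxidation. In high-fat/high-fat against chow/chow, 17 of 18 were higher, with a median of 0.26. Acot2, a mitochondrial thioesterase, was 10.61, 10.04, 9.87, 10.38 and 9.95 against 9.65, 9.76, 9.53 and 9.36, without overlap (0.60, SE 0.14, adjusted p = 0.186). In the chow/high-fat group a single animal set the spread of several textbook targets. Angptl4, the secreted inhibitor of lipoprotein lipase, was 8.18, 7.56, 5.84, 8.56 and 8.50 in chow/high-fat and 6.93, 7.01, 7.02 and 6.45 in high-fat/chow. Chow/high-fat replicate 3 lay below all 4 high-fat/chow animals while the other 4 lay above them. The same animal was lowest in its group for Ucp3, the muscle uncoupling protein (10.08, against 11.22 to 11.43), Pdk4, the kinase that shuts off pyruvate oxidation (11.71, against 12.24 to 12.49), and G0s2 (6.37, against 6.88 to 8.27). Chow/chow replicate 3, whose animal number neighbours it, was likewise lowest in its own group for Angptl4 (6.58), Ucp3 (10.21) and Pdk4 (11.83). For G0s2 (6.75) it was not the lowest. Low values of these genes were thus shared by neighbouring animals on different diets. With all animals the differences were 0.87 for Angptl4 (adjusted p = 0.437), 0.30 for Ucp3 (0.659) and 0.32 for Pdk4 (0.417). Without chow/high-fat replicate 3 they were 1.35 (adjusted p = 0.112), 0.55 (0.306) and 0.46 (0.257). Yet for Decr1 chow/high-fat replicate 3, at 8.28, lay above all high-fat/chow animals.

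Fatty acid uptake and activation genes were higher in 14 of 16 members, with a median of 0.18. Of the 16, 4 were higher at an unadjusted p under 0.05 (25%, against 5.09% of all genes) and 1, Acsl5, lower (6.25%, against 6.07%). Acsl4 and Acsl5, ligases of long-chain fatty acids to coenzyme A, differed in opposite directions, by 0.35 (adjusted p = 0.239) and -0.29 (adjusted p = 0.224). Genes of lipid synthesis had a median of -0.10, with 8 of 18 higher. Scd, the desaturase that makes monounsaturated fatty acids, was 7.99, 7.51, 7.77, 7.95 and 6.75 in chow/high-fat and 8.80, 8.51, 8.54 and 7.82 in high-fat/chow. The groups overlapped, and the difference was -0.82 (SE 0.26, adjusted p = 0.251), with -0.39 from the own diet and 0.43 from the grandfather's. In insulin signalling, Inpp4b, a phosphatase of phosphoinositides, differed by 0.42 without overlap (adjusted p = 0.224), while Slc2a4, the insulin-responsive glucose transporter, differed by -0.10 (SE 0.096). Sntb1, a syntrophin of the dystrophin complex, differed by -0.47 (SE 0.16, adjusted p = 0.279). Each diet alone went the same way against chow/chow, at -0.74 for the own diet and -0.27 for the grandfather's. The high-fat/high-fat animals, at 9.78, 10.12, 10.66 and 10.23, nevertheless overlapped the chow/chow animals, from 9.97 to 10.37.

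The genes that were lower in chow/high-fat, that is higher in high-fat/chow, mostly owed their difference to the high-fat/chow animals. Kptn, a subunit of the KICSTOR complex that restrains mTORC1 when amino acids are scarce, was 7.53, 7.47, 7.55, 7.56 and 7.50 in chow/high-fat and 7.76, 7.97, 8.26 and 7.87 in high-fat/chow. The 5 chow/high-fat animals were tightly grouped below all 4 others (-0.44, SE 0.094, adjusted p = 0.146), with -0.04 from the own diet and 0.40 from the grandfather's. The high-fat/high-fat animals, at 7.87, 8.20, 7.80 and 8.02, resembled the high-fat/chow animals in level. Cdc123, an assembly factor of a translation initiation complex, repeated that order with a smaller difference (-0.27, SE 0.059; -0.01 and 0.26 for the 2 diets). Ddn, encoding the cytoskeletal protein dendrin, was 5.44, 5.50, 5.71, 5.57 and 5.45 against 5.90, 5.96, 5.98 and 5.96, without overlap (-0.42, SE 0.079). Ntf3, a neurotrophin, differed by -0.39, Atrip, a partner of the DNA damage kinase Atr, by -0.34, Ube2e2, a ubiquitin-conjugating enzyme, by -0.35, and Ranbp1, a regulator of the nuclear transport protein Ran, by -0.34. Other probe sets of Ube2e2 and Ranbp1 differed by -0.11 and -0.05. Csgalnact1, of chondroitin sulfate synthesis, differed by -0.39 and was the 1 gene of the 20 whose groups overlapped.

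Several of the genes higher in chow/high-fat followed the same split. Cpo, encoding carboxypeptidase O, was 6.68, 6.71, 6.45, 6.42 and 6.49 in chow/high-fat, near the chow/chow animals, and 6.14, 5.90, 5.94 and 6.12 in high-fat/chow. Its difference of 0.53 (SE 0.10, adjusted p = 0.146) was 0.01 from the own diet and -0.51 from the grandfather's. Ilvbl, an enzyme of the endoplasmic reticulum, differed by 0.44 (0.02 and -0.41) and Cacna1f, a calcium channel subunit best known from the retina, by 0.38 (0.0095 and -0.37). Hmx3, a homeobox factor, differed by 0.57 (0.24 and -0.33). LOC680428, a gene without a descriptive name, differed by 0.50, nearly all of it from the own diet (0.46 and -0.04). The signs of high-fat/high-fat minus chow/chow matched those of the comparison in 8 of the 12 higher genes and 1 of the 8 lower genes.

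For mitochondrial genes outside fat oxidation the list medians lay near that of all genes. Respiratory complex I had 16 of 31 members higher, complexes II to V 23 of 41, and the tricarboxylic acid cycle 6 of 15, with medians of 0.0032, 0.0080 and -0.0057. The cardiolipin genes were lower in 7 of 10, with a median of -0.10, and 4 of 10 were lower at an unadjusted p under 0.05 (6.07% of all genes). Tamm41, which makes a precursor of this lipid of the inner membrane, was 6.98, 6.95, 6.86, 7.06 and 7.09 against 7.14, 7.29, 7.35 and 7.40. Tafazzin, which remodels its chains, was 8.29, 8.20, 8.36, 8.42 and 8.25 against 8.46, 8.69, 8.77 and 8.44. Neither overlapped (-0.31 and -0.29, adjusted p = 0.186 and 0.224), and for both the grandfather's diet gave most of the difference (0.32 and 0.25). Of the assembly factors, Smim20, of cytochrome oxidase, was 9.54, 10.19, 10.22 and 10.07 in high-fat/chow and from 9.57 to 9.79 in chow/high-fat. High-fat/chow replicate 1 thus lay below all chow/high-fat animals and the other 3 above them.

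That animal bore on the count of genes called. Without high-fat/chow replicate 1 the limma fit called 33 genes in place of 1, 9 higher and 24 lower, while leaving out any other array gave 0 or 1. Smim20 then differed by -0.49 (adjusted p = 0.00587), and Mlycd, Kptn, Tamm41, Cpo and Ddn were among the 33. With all animals Smim20 differed by -0.33 (adjusted p = 0.239). Its array was the 1 of its group in well column 7, with 2 others in column 5 and 1 in column 9. Its mean correlation with its own group was 0.9876 where the others' ran from 0.9878 to 0.9905. In the chow/high-fat group such correlations ran from 0.9875 to 0.99, so its value was not unusual. The median intensity of replicate 1 was within the range of the other arrays. The part of the well column in this was not tested.

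Slow-fibre genes had the highest median of the 46 lists, 0.32, with 13 of 17 higher, but 0 of 17 reached an unadjusted p of 0.05. Their spread between animals was as large as the difference. Myh7 was 11.77, 9.84, 11.26, 10.91 and 10.70 in chow/high-fat and 10.08, 11.15, 8.82 and 10.02 in high-fat/chow, and the groups overlapped (0.88, SE 0.42, adjusted p = 0.448). Tnnt1, Tnnc1 and Tnni1, the slow troponins, differed by 0.89, 0.89 and 0.72. Tpm3, the slow tropomyosin, differed by 0.55 and its other probe set by -0.23. Chow/high-fat replicate 2 was the lowest of its group and high-fat/chow replicate 2 the highest of its group in Myh7 and these troponins. The median of the list ran from 0.15 without chow/high-fat replicate 1 to 0.54 without high-fat/chow replicate 2. The chow/chow animals were above both groups in mean: the list's median was -0.28 for the own diet and -0.58 for the grandfather's. Fast-fibre genes had a median of -0.03, which was 0.02 as deposited and 0.10 after centring on array medians.

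Markers of fibroblasts, leukocytes and tendon lay mostly lower in chow/high-fat. Fibroblast and matrix markers were lower in chow/high-fat in 28 of 32 members (30 of 32 as deposited), with a median of -0.22. Of the 32, 11 were lower at an unadjusted p under 0.05 (34.4%, against 6.07% of all genes) and 0 higher. Timp2, an inhibitor of matrix proteases, was 9.28, 9.26, 9.40, 9.49 and 9.63 against 9.60, 9.99, 9.81 and 9.86, with slight overlap (-0.40, SE 0.10, adjusted p = 0.208), and Tgfb1, which drives matrix deposition, differed by -0.25 without overlap. The summed intensity of these markers ran from 14850 to 19360 in chow/high-fat, from 19120 to 22980 in high-fat/chow and from 16770 to 22720 in chow/chow. Leukocyte markers were lower in 19 of 24 (median -0.22), with sums from 2333 to 3237 and from 3179 to 3658. Of the 24, 8 were lower at an unadjusted p under 0.05 (33.3%, against 6.07% of all genes) and 1 higher (4.17%, against 5.09%). C1qb, a complement subunit made by macrophages, was 7.11, 7.36, 7.32, 7.38 and 7.28 against 7.64, 7.69, 7.77 and 7.58, and Cybb, of the phagocyte oxidase, differed by -0.50, both without overlap (adjusted p = 0.224 each). Tendon markers were lower in 11 of 13 (median -0.36), with sums from 3215 to 7644 and from 4355 to 6545. No measured member of these lists passed over all genes. Their part in the differences of muscle genes was not tested.

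**Figure D3:**
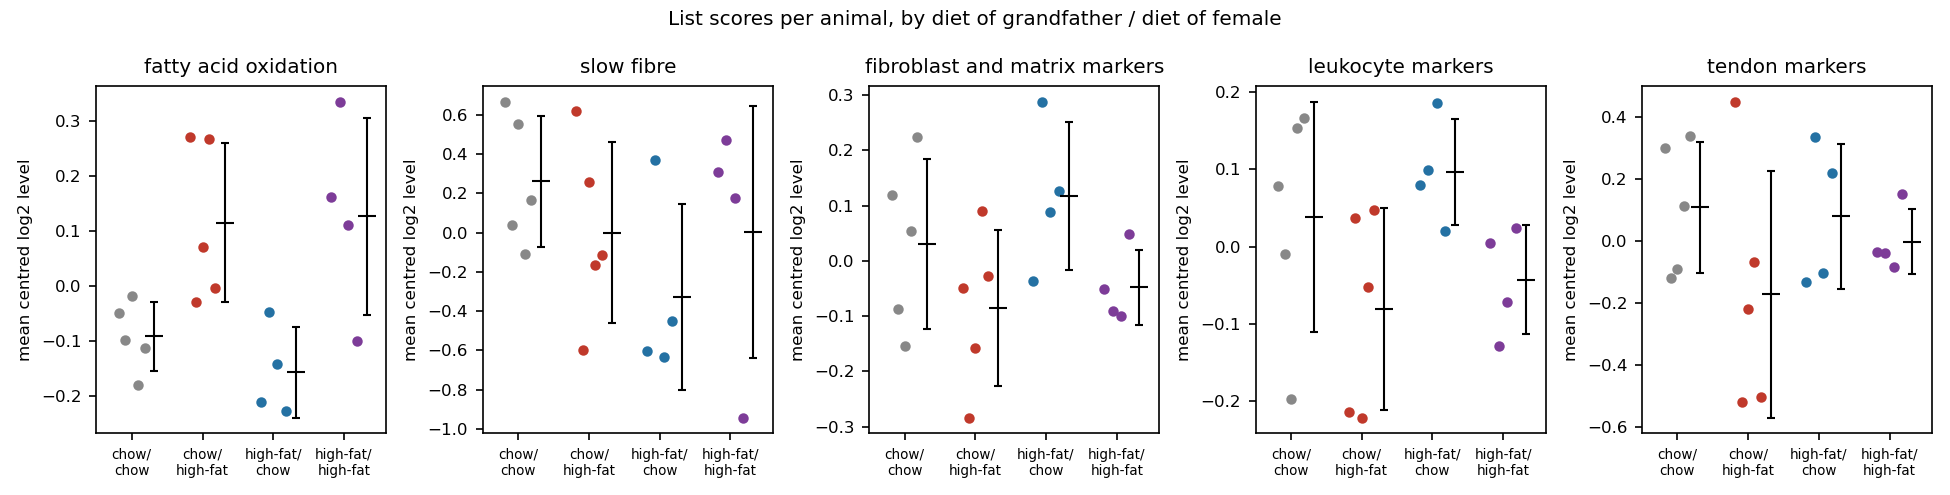
Score of each animal (points; the mean of the list's genes, each set to a mean of 0 across the 18 arrays, on the log2 scale) for 5 lists in the 4 groups, with mean and SD as bars. The oxidation scores of the chow/high-fat animals, from -0.03 to 0.27, lie above those of the high-fat/chow animals, from -0.23 to -0.05, while the other 4 lists overlap between these groups.

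Some wells recur in the titles of both lineages, and none recurs within a lineage. A well column may therefore span several plates or runs, and lineage may go with plate. What the wells stand for is not given in the sources used here. Within well column 5 (2 against 2) the oxidation score differed by 0.36, the fibroblast score by -0.17, the leukocyte score by -0.28 and the tendon score by 0.08. Within column 7 (3 against 1) these were 0.22, -0.12, -0.13 and -0.28. Decr1 differed by 1.07 and 0.81 and Aqp7 by 2.05 and 1.79 in the 2 columns. Of the 46 list scores, 41 kept their sign in column 5 and 34 in column 7, where the high-fat/chow group was replicate 1 alone, and column 9 held no chow/high-fat array. The directions of Decr1, Aqp7 and the oxidation score were fixed in advance, since their groups do not overlap.

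Among the remaining lists the medians lay between -0.09 and 0.14. Ribosomal genes leaned lower, in 46 of 64 mitochondrial (median -0.05) and 39 of 55 cytosolic members (median -0.03). Rpl29 differed by -0.36 and its other probe sets by -0.24 to -0.44, but this gene has many near-identical copies and its signal is uncertain. Ifit1, an interferon-induced gene, was 5.69, 4.90, 6.08, 5.04 and 5.70 in chow/high-fat and 6.17, 6.55, 6.03 and 6.37 in high-fat/chow, with slight overlap (-0.80, SE 0.26, adjusted p = 0.251), while its list had 15 of 24 members lower. Egr1, an immediate early gene that responds to handling, differed by 0.92 (SE 0.41, adjusted p = 0.407) with animals of both groups overlapping. Rbm3, a cold-inducible RNA-binding protein, differed by -0.44 (SE 0.11, adjusted p = 0.208). Writers and erasers of DNA and histone methylation were higher in 24 of 33 with a median of 0.08, which was -0.02 as deposited. For 7 lists the median and the mean differed in sign: respiratory complex I, complexes II to V and their assembly factors, antioxidant, imprinted, vessel wall, and nerve and Schwann genes.

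**Figure D4:**
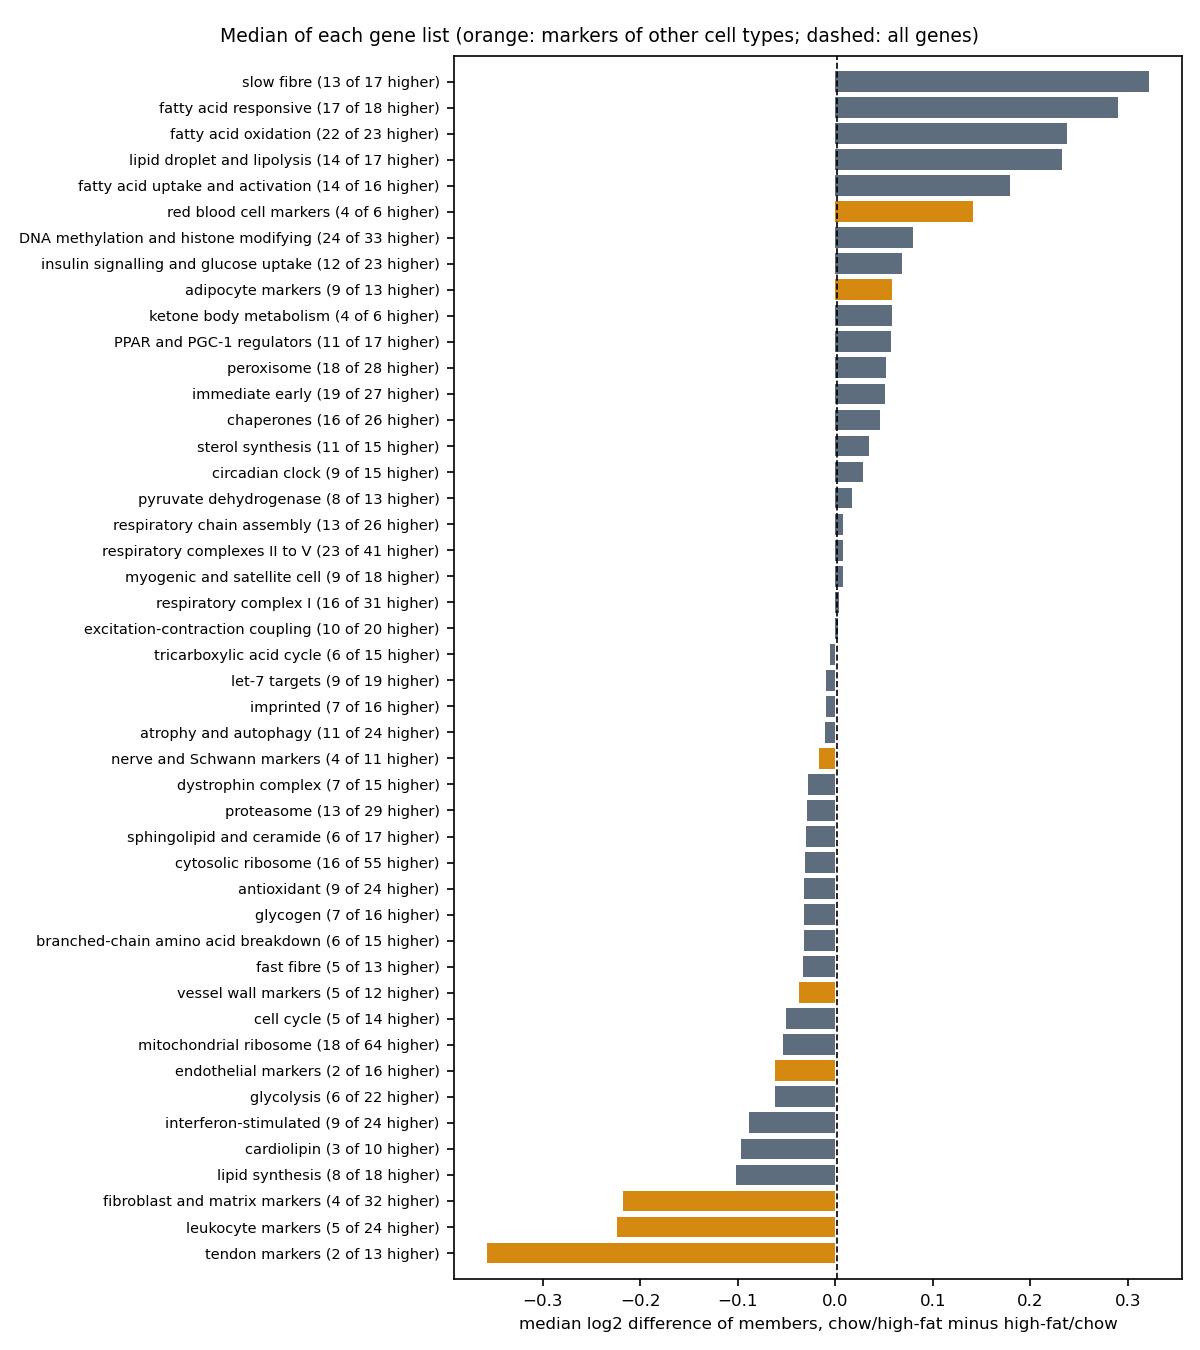
Median log2 difference, chow/high-fat minus high-fat/chow, of the measured members of each of 46 gene lists (bars), with marker lists of other cell types in orange and the median of all genes as a dashed line; the count beside each name gives the members that were higher. The lists of slow-fibre and fat-handling genes lie at the top, up to 0.32, and the tendon, leukocyte and fibroblast markers at the bottom, down to -0.36.

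Over all genes, the difference between chow/high-fat and high-fat/chow had a Pearson correlation of -0.203 and a Spearman correlation of -0.219 with that between high-fat/high-fat and chow/chow. The 2 comparisons share no array but share the normalization, and genes are not independent replicates. The second gave 0 genes past the threshold in limma (0%; smallest adjusted p = 0.164) and 1347 at an unadjusted p under 0.05 (10.7%). In both, the first group ate the high-fat diet and the second ate chow, while the high-fat lineage is the second group of one and the first of the other. Of the 20 genes of smallest p, 7 were led by the own diet, and 6 of these had the same sign in both, such as Decr1 (0.85 and 0.33), Aqp7 (1.67 and 0.96), Nudt7 (0.67 and 0.59) and Mlycd (0.66 and 0.32). The exception was Ranbp1. Of the 13 led by the grandfather's diet 10 had opposite signs, such as Kptn (-0.44 and 0.41), Cpo (0.53 and -0.28) and Ddn (-0.42 and 0.15). The other 3, Cat (0.41 and 0.14), Acadl (0.42 and 0.04) and Csgalnact1 (-0.39 and -0.14), had the same sign. These genes were chosen for their difference in the first comparison. Which diet led was judged against the chow/chow arrays, which the second comparison also uses. The leading diet and the sign in the second comparison are thus not independent, and the values are given as a description.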

How the data were processed

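RNA of 18 muscles, 200 ng each, was hybridized to 18 arrays, per the labels' protocols. The deposited values are intensities on a linear scale for 20917 probe sets, which the authors made with Affymetrix Expression Console and PLIER, per the submitters' processing notes; versions and settings are not given in the sources used here. For arrays the number of animals limits the precision. Probe sets were named from GEO's platform annotation: 18197 had 1 symbol, 960 several and 1760 none.

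Values were taken as log2(intensity + 16) and quantile normalized because array medians ran from 55.02 to 73.97. Of the probe sets with 1 symbol, the one of highest mean was kept per gene where its mean exceeded the 25th percentile (5.28), leaving 12642 genes. All 4 groups were fitted as means with limma 3.58.1 in R 4.3.3 (lmFit, eBayes; two-sided, Benjamini-Hochberg over all genes at 0.05). Lists are described by counts and medians, without a test. An adjusted p without a named tool is from this fit.

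Genes named are the 20 of smallest p, the 2 of smallest p in each list of at least 5 measured members, and a panel of 12. Other members of the oxidation, responsive, droplet and slow-fibre lists, and Adipoq, Slc17a5, Crot, Pex11a, Abcd3 and Pxmp4, were chosen after their values were seen. The comparison, the groups compared, the panel and the 46 lists were chosen with earlier results of these data known.

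Replicate numbers follow accession order. The animal numbers in the titles neighbour each other within a lineage, and in the 5 such pairs of the chow lineage the deviations from the group means correlated at 0.126 to 0.414 over genes, above the 0.1 taken to mark a pair; in the 3 pairs of the high-fat lineage they ran from -0.0366 to 0.199. Over 32 pairs of arrays of 1 group, at most 0.0908% of values were identical, and log2 differences had an SD of at least 0.196, so no array was a copy. Tested on simulated data of 12642 genes, the fit recovered 79.1%, 97% and 100% of genes changed by 0.5, 1 and 2 log2 (67, 67 and 66 genes). It made 184 true and 6 false calls. The simulated noise was normal and independent between genes and animals. Relatives and correlated genes were not simulated, so these shares check the code and do not give the power in the real data. Alternatives were other normalizations, offsets and filters, all probe sets, other variance models, array weights, the 9 arrays alone, well column or neighbouring animal numbers as a block, the array median as a covariate, and each array left out. The fits of the own and of the grandfather's diet with neighbouring numbers as a block were chosen after seeing the data.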

Additional observations from a re-analysis of the deposited data

Results flagged for a closer look

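In 358 tests of the chow/high-fat or high-fat/chow group (named genes and 7 list scores), 13 held an animal apart from the rest by Dixon's criterion. Chance alone gives about 1 in 20 groups, which is more than were found, so the flags are no excess. In chow/high-fat, Ucp3 was 10.08 in replicate 3 (others 11.22 to 11.43), and Ankrd2, a stretch-responsive gene of slow fibres, was 8.08 in replicate 4 (others 8.90 to 9.04). Replicate 4 was also highest for Cdc123 at 9.19 (others 9.05 to 9.09) and lowest for Rpl29 at 10.95 (others 11.10 to 11.16). Replicate 1 was lowest for Bdh2, a short-chain dehydrogenase, at 6.25 (others 6.60 to 6.71) and highest for Eci1 at 10.69 (others 10.35 to 10.44). Replicate 5 was lowest for Mgll, the monoglyceride lipase, at 8.87 (others 9.02 to 9.08).

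In high-fat/chow, 3 of the 6 such values belonged to replicate 1, the animal whose removal raised the number of genes called from 1 to 33. It was highest for Lipe at 8.38 (others 8.11 to 8.13), lowest for Mrpl23, of the mitochondrial ribosome, at 9.34 (others 9.82 to 9.92), and lowest for Kdm6b, a histone demethylase, at 8.47 (others 8.68 to 8.70). Replicate 4 was lowest for Angptl4 at 6.45 (others 6.93 to 7.02). Replicate 2 was highest for Cpt2 at 10.14 (others 9.86 to 9.91) and lowest for Crat, the carnitine acetyltransferase, at 11.95 (others 12.00 to 12.01).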

How the results depend on the processing

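No paired analysis was possible for chow/high-fat against high-fat/chow because neighbouring animal numbers lie within 1 lineage, so that no pair spans these groups; such numbers entered as a random block. The count of genes called, 1, became 0 on the table as deposited, with median-centred arrays, with an offset of 1 or of 64, with array weights, with neighbouring animal numbers as a random block (correlation 0.126, 10 blocks), without the 2 dimmest arrays by median, and with the array median as a covariate. It became 2 with all probe sets or the 9 arrays alone and 3 with the well column as a block, and it ran from 0 to 33 with each array left out. In these limma fits with 0 called, from 935 to 1808 genes had an unadjusted p under 0.05. For the own diet the count became 1 as deposited and stayed 0 with each array left out, and for the grandfather's diet it became 0 as deposited and ran from 0 to 2. With neighbouring numbers as a random block, chosen after seeing the data, these counts stayed at 0 and 1, and with the fixed block within pairs that of the own diet stayed at 0. The medians of the oxidation list (0.19 to 0.31), the responsive list (0.23 to 0.35), the droplet list (0.14 to 0.28), the fibroblast markers (-0.30 to -0.16), the leukocyte markers (-0.31 to -0.16) and the tendon markers (-0.45 to -0.22) kept their sign in 32 of 32 settings. The lists and genes of small difference did not. On the table as deposited the difference was 0.013 for Myl11, -0.0068 for Acads, -0.041 for Acot13, -0.0053 for Fitm1 and -0.019 for Mgll. With arrays centred on their medians the difference was 0.017 for Pvalb, 0.095 for Myl11 and 0.019 for Cidec. With array weights the difference was -0.0061 for Adipoq. With the well column as a block the difference was -0.054 for Ucp2. With the array median as a covariate the difference was 0.0091 for Bscl2 and 0.11 for Cidec. Without the 2 arrays of lowest median the difference was 0.044 for Bscl2, 0.17 for Cidec and 0.14 for Ankrd2. With each array left out the range was -0.0051 to 0.24 for Slc4a1, -0.018 to 0.12 for Acot13, -0.15 to 0.30 for Adipoq, -0.23 to 0.45 for Ucp2, -0.012 to 0.079 for Fitm1, -0.16 to 0.034 for Cidec, -0.30 to 0.17 for Ankrd2, -0.078 to 0.016 for Bscl2, -0.019 to 0.078 for Mb and -0.046 to 0.59 for Myl2. The cause was not tested. Over all genes the median difference was -0.066 on the table as deposited. The difference of array medians ran from -6.35 to -2.87 with an array left out (exact permutation p from 0.143 to 0.464).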

Other observations

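Several gene groups not described above held single genes of small p in chow/high-fat minus high-fat/chow, none of which passed over all genes. Glycolysis was lower in 16 of 22 members (median -0.06, which was 0.05 after centring on array medians), with Pgk1 and Eno1, enzymes of its energy-yielding steps, at -0.19 and -0.23. Of the phosphorylase kinase subunits that start glycogen breakdown, Phkg1 and Phkg2 differed by -0.23 and -0.23. The constitutive proteasome was lower in 16 of 29, with Psmb6 at -0.23 (SE 0.069, adjusted p = 0.230) and Psmb1 at -0.19. At the membrane, Sgcd, a sarcoglycan, was 10.27 to 10.42 in chow/high-fat and 10.06 to 10.16 in high-fat/chow without overlap (0.23, SE 0.064, adjusted p = 0.224), while Cav3, the muscle caveolin, differed by -0.23.

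Vgll2, a cofactor of myogenic transcription, differed by 0.31 (SE 0.095, adjusted p = 0.239), of which -0.01 came from the own diet and -0.32 from the grandfather's. Pcna, the sliding clamp of DNA replication, was 7.50 to 7.78 in chow/high-fat and 7.80 to 7.91 in high-fat/chow, without overlap (-0.23, adjusted p = 0.224). The antioxidant genes Sod3 and Gss differed in opposite directions, by 0.25 and -0.23, as did the clock-related genes Cry1 and Hlf, by 0.19 and -0.18. The myelin genes Mbp and Prx differed by 0.32 and 0.22, and the other probe set of Mbp by 0.08. Endothelial markers were lower in 14 of 16 (median -0.06), with 0 of 16 at an unadjusted p under 0.05. Causes were not tested.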
